A study of Homo sapiens with 9 samples.

Results

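Chromosome 4 carries LINC00682, the gene of the long non-coding RNA NESPR, and the rest of that chromosome was examined for changes in chromatin accessibility when NESPR was targeted. The members were all regions of the deposited count table on chromosome 4, leaving out those whose centre lay between 41650000 and 41980000 (GRCh38), the surroundings of LINC00682 (chr4:41879521-41882611) itself. This gave 6239 of 148797 regions, or 4.19% of the table. The short arm held 1791 members and the long arm 4448, with the arms split at 50 Mb, and 22 regions of the chromosome fell in the window left out. The cells were SK-N-BE(2)c, an established human neuroblastoma line, and their open chromatin was read by ATAC-seq, which cuts and tags exposed genomic DNA with the transposase Tn5. Per the labels, the groups differed only in the antisense oligonucleotide (ASO) they received: ASO2 or ASO10, the oligonucleotides of the study, or NCA, its control oligonucleotide. Each was delivered with a lipid transfection reagent at 100 nM, cells were collected at 48 h, and each group had 3 libraries. NCA served as the control for both ASOs, so the 2 comparisons with NCA share their control libraries.

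Long non-coding RNAs can act in cis, on genes next to their own locus, or in trans, on loci elsewhere. An effect in cis is usually sought as a change that is largest beside the locus and fades with distance along the same chromosome. Most of chromosome 4 is gene-poor: long stretches between genes, many of them flanking neuronal adhesion genes such as protocadherins and teneurins, separate islands with many genes, of which the end of the short arm is one. The long arm carries HAND2, a transcription factor of the sympathoadrenal lineage and of the core regulatory circuit of neuroblastoma.

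Promoters of 6 genes carry the comparison at start sites, and their sequences are shown because the first pair belong to the nearest tested start regions outside the window and the other four are start sites called under ASO2. Each runs 5′ to 3′ on the strand of its gene, from 250 bases before to 50 bases after the start (RefSeq, GRCh38.p14). Capitals mark matches to the motifs searched, and a match on the opposite strand is printed as its reverse complement.
SLC30A9, chr4:41990280-41990579, + strand: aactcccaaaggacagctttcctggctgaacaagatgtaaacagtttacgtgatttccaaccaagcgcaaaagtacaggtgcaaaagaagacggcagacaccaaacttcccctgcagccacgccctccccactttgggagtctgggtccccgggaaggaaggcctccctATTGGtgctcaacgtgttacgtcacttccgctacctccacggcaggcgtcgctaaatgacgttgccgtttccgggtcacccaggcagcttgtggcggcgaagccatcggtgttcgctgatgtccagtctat
BEND4, chr4:42152606-42152905, - strand: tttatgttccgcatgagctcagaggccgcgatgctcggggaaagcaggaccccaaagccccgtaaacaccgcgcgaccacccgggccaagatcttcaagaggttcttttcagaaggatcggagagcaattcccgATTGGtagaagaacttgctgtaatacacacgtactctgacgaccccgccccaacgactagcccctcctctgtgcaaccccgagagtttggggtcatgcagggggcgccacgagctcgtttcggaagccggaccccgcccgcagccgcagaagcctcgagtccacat
CXCL8, chr4:73740319-73740618, + strand: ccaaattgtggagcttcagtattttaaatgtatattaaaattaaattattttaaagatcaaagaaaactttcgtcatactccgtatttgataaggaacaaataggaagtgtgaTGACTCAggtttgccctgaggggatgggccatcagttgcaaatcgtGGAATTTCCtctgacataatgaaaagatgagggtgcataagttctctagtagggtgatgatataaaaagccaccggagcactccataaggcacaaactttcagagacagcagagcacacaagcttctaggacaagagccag
PLK4, chr4:127880643-127880942, + strand: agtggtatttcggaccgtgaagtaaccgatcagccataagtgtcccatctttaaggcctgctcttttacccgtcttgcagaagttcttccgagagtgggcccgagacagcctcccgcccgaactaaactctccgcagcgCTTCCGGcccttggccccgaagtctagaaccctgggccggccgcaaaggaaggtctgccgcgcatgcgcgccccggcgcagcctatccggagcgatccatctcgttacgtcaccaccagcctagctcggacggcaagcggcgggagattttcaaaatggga
STX18, chr4:4461923-4462222, - strand: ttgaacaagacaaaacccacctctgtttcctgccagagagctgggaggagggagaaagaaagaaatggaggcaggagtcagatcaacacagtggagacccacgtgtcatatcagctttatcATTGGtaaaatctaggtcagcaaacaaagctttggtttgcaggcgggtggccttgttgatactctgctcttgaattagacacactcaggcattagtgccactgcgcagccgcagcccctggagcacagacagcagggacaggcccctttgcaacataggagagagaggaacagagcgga
CTBP1, chr4:1249081-1249380, - strand: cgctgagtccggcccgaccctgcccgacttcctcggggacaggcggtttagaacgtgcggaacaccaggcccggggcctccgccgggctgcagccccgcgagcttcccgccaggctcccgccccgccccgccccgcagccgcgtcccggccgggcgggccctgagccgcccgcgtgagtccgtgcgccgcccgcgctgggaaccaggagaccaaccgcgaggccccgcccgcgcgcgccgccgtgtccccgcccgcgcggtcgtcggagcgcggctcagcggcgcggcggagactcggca
The motifs searched on both strands were TGANTCA for AP-1, TGACGTCA for CRE, CCGGAAG for ETS, GGNNTTTCC for NF-kB, CCAAT and AGATAA for GATA. These letters stood in 7.71%, 1.85%, 10.3%, 6.26%, 34.6% and 10.3% of the 35116 promoters in the table, in that order. SLC30A9, BEND4 and STX18 each held a CCAAT match, the most frequent of the 6. CXCL8 held an AP-1 match beginning 137 bases and an NF-kB match beginning 91 bases before its start, and PLK4 an ETS match beginning 111 bases before it. The CTBP1 promoter held none of the 6 motifs and was 80.7% G and C, against 39.3% for CXCL8. A match describes the letters only.

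Library totals ran from 7293565 to 10948569 counts, and members took between 3.58% and 3.95% of a library. The line was checked against sympathoadrenal markers: a region over the start of GATA3, ISL1, DBH, HAND2 and CHGA was open in all 9 libraries, at 14.2 to 36.4 CPM (counts for libraries of equal size, after TMM scaling), while the starts of PRRX1 (mesenchymal), PTPRC (haematopoietic) and KRT5 (epithelial) had no region within 1 kb. The other markers listed were not matched and could not be checked: TH, COL1A1, TWIST1, CD3E, SPI1, EPCAM, CDH1, and the endothelial PECAM1 and CDH5. Of the members, 4794 had enough counts to be tested, 1406 on the short and 3388 on the long arm, and 1445 did not. A region was called when its Benjamini-Hochberg adjusted p in edgeR's quasi-likelihood test, adjusted over all 119417 tested regions, was under 0.05. Nothing in the labels says that libraries came from separate cultures, so p-values measure the spread between these samples. In these bulk libraries, a change in every cell and a change in the share of cells that are open at a site cannot be told apart.

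Under ASO2, accessibility rose at far more chromosome 4 regions than it fell. Of the 4794 members tested, 545 were higher than under NCA and 38 lower, which is 12.2% called. Over all tested regions 5.6% were called (4.79% higher and 0.808% lower), and 5.37% of those on the other chromosomes. The median log2 fold change of members was 0.12, with quartiles of -0.23 and 0.61, against -0.027 elsewhere, and only chromosome 18 had a higher median (0.13). Chromosome 4 ranked first of 23 chromosomes in the share called, just above chromosome 18 at 11.3%, while chromosomes 13 and 5 stood at 8.56% and 8.45% and chromosomes 22 and 19 at 1.39% each. The share of members called was between 1.91 and 2.42 times that of all tested regions that were not members, over the fits tried. It was 2.68 times when a log2 fold change over 1 was also required. Without ASO2 replicate 2 the calls dropped to 378.

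ASO10 called fewer members. It gave 72 higher and 10 lower, or 1.71% of those tested, against a background of 1.09% (0.876% higher and 0.21% lower). Its share of members was between 1.05 and 1.73 times that of all tested regions that were not members, over the fits tried. DESeq2 gave 1.05 and limma-voom 1.07, and the ratio was 2.46 with a log2 fold change over 1 required. The median was 0.017, and chromosome 4 ranked behind chromosomes 19, 17 and 18. Leaving out any single NCA or ASO10 library left between 26 and 48 calls. With loess offsets, which centre the fold changes at every abundance, the split was 57 higher and 18 lower. Set directly against ASO10, ASO2 left 246 members higher and 18 lower, 5.51% against a background of 3.23% (2.54% higher and 0.682% lower), and chromosome 4 was first by that share too. That count lay between 151 and 163 without ASO2 replicate 1 or 2 or without any single ASO10 library.

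**Figure D1:**
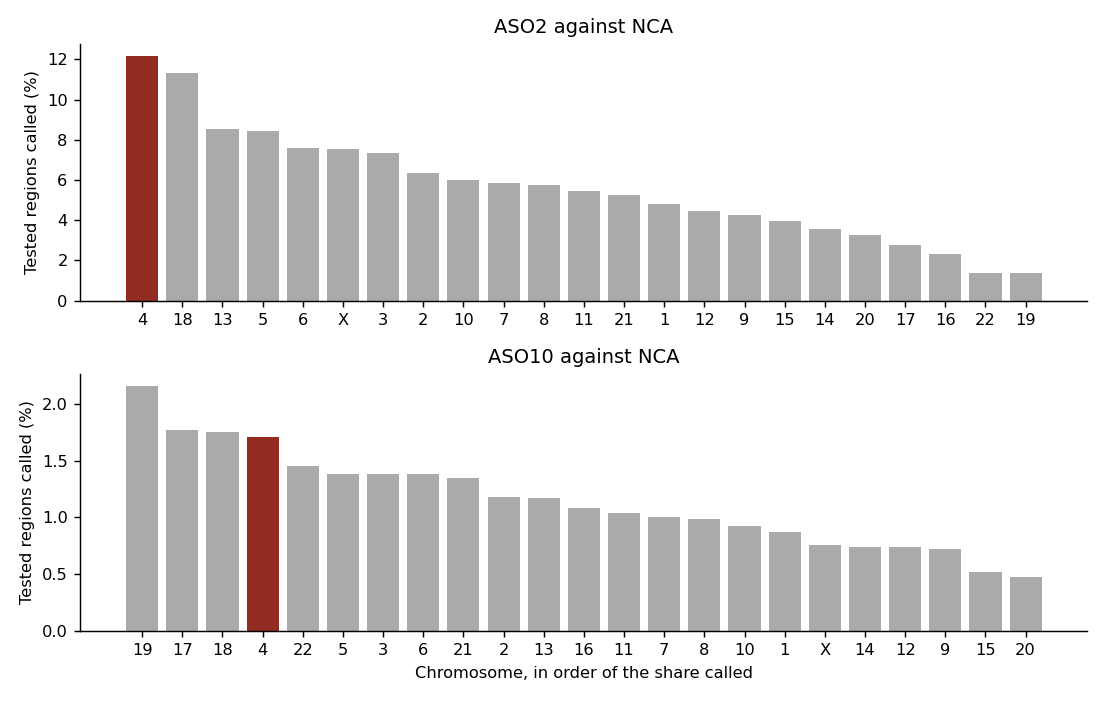
Share of tested regions called on each chromosome, in percent, for ASO2 against NCA (upper panel) and ASO10 against NCA (lower panel), chromosomes in order of the share and chromosome 4 in dark red. Chromosome 4 stands first at 12.2% under ASO2, and behind 3 others at 1.71% under ASO10, on axes of different height.

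As a value for each library, the mean log2 CPM of members minus that of all other chromosomes was 0.069, 0.024 and 0.082 in the NCA libraries. It was 0.22, 0.29 and 0.22 under ASO2 and 0.12, 0.066 and 0.095 under ASO10. All 3 ASO2 libraries lay above the other 6, while ASO10 and NCA overlapped. The difference from NCA was 0.19 for ASO2 (two-sided exact permutation p = 0.1, adjusted 0.171 over 12 tests) and 0.035 for ASO10 (exact permutation p = 0.3, adjusted 0.45). With 3 against 3 libraries the smallest p is 0.1, so no score of this kind could pass a threshold of 0.05.

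Near and distant regions did not separate by group when each library was scored. The means over regions within 1 Mb minus those over 10 Mb away were 0.15, 0.13 and 0.060 on the log2 CPM scale under NCA, 0.052, 0.20 and 0.059 under ASO2, and 0.054, 0.25 and 0.18 under ASO10. The 3 groups overlapped throughout. The ASO2 difference from NCA was -0.013 (exact permutation p = 0.8) and the ASO10 difference 0.046 (exact permutation p = 0.5). Widening the near side to 5 Mb gave -0.062 for ASO2 (exact permutation p = 0.1, adjusted 0.171), with all 3 ASO2 libraries below all NCA libraries, and -0.017 for ASO10 (exact permutation p = 0.5). A negative sign means that the nearer regions stood lower against the distant ones than they did under NCA. The near side lies wholly on the short arm. Of the distant regions, 3375 lie on the long arm and 912 on the short arm, so these scores mix distance with arm.

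By distance class, ASO2 called 12 regions higher and 1 lower of 73 within 1 Mb, or 17.8%, with a median of 0.13. That share lay above the 12.2% of all members in the main fit and ran from 9.30% to 19.1% over the settings tried. All members had 7.22% called in the fit that gave 9.30%, without ASO2 replicate 2. They had 18.4% in the fit that gave 19.1%, with at least 10 counts in every library. Between 1 and 2 Mb edgeR, DESeq2 and limma-voom each called 0 of 36 regions, 5 of which had an unadjusted p under 0.05, and between 1 and 5 Mb 6 higher and 3 lower of 170, or 5.29%, with a median of 0.087. From 5 to 10 Mb it called 29 of 264, or 11.0%, all higher. Beyond 10 Mb the long arm had 467 higher and 21 lower of 3375, or 14.5%, with a median of 0.20, and the short arm 31 higher and 13 lower of 912, or 4.82%, with a median of -0.10. The share was thus lower at 1 to 5 Mb than on either side of it, and beyond 10 Mb it was high on the long arm and low on the short arm. Under ASO10 the same classes had 1 of 73, 1 of 170 and 5 of 264 called, and 68 of 3375 and 7 of 912 beyond 10 Mb. Across members, the log2 fold change and the logarithm of distance had a Spearman rank correlation of 0.12 for ASO2 and 0.087 for ASO10, and over the 507 regions within 10 Mb of 0.016 and -0.018. Of those 507, 98 lay at 49 to 52 Mb beside the centromere, at the far end of that range. Their medians were -0.13 under ASO2 and -0.041 under ASO10, and no coefficient was calculated without them. On the short arm alone, which carries LINC00682, the sign was the opposite of that across members, at -0.24 and -0.063 (1406 regions), so values there were lower at greater distance. Over the short arm between 10 and 49 Mb, without its far end and the centromere flank (a choice made after seeing the data), the coefficients were -0.044 and -0.089 (770 regions). Neighbouring regions share libraries and sequence context, so these coefficients only describe the points.

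**Figure D2:**
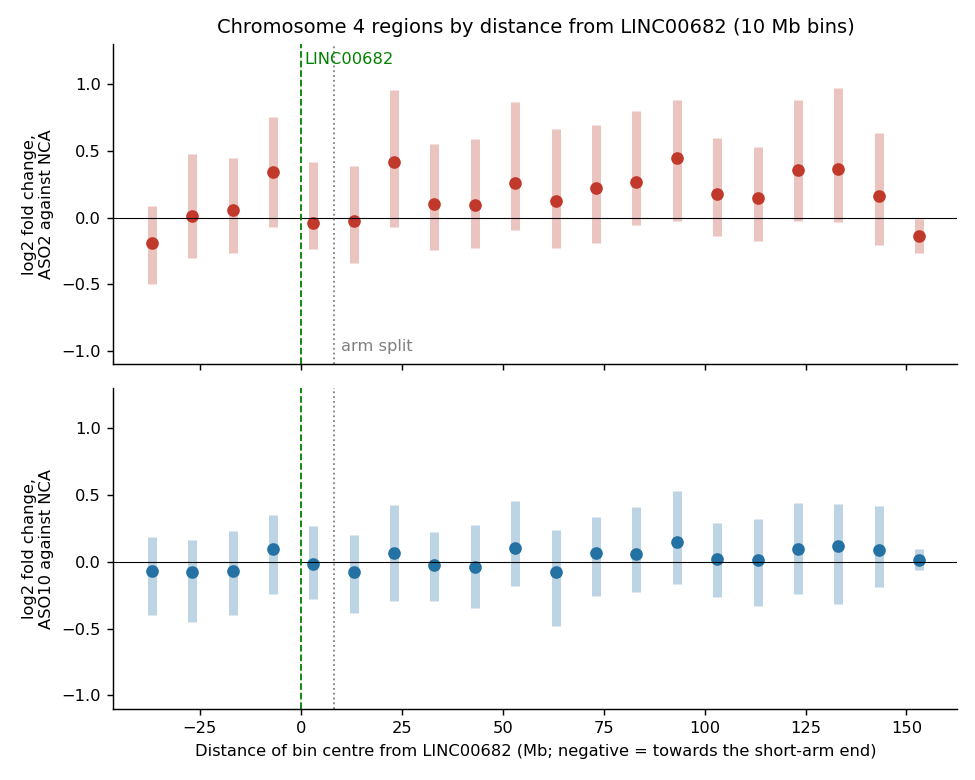
Median (points) and quartiles (bars) of the log2 fold change of chromosome 4 regions in bins of 10 Mb, by distance of the bin centre from LINC00682 in Mb, for ASO2 (upper) and ASO10 (lower) against NCA. Under ASO2 the medians run from -0.19 at the short-arm end to 0.45 far out on the long arm, and the bin that holds LINC00682 is at -0.041. That bin, from 40 to 50 Mb, takes in part of the stretch from 49 to 52 Mb beside the centromere, which had a median of -0.13. Regions within 1 Mb of LINC00682 had a median of 0.13, and those at 1 to 5 Mb 0.087.

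The stretch from 49 to 52 Mb beside the centromere weighed on the class from 5 to 10 Mb. Its 100 tested regions had a median of -0.13 under ASO2 and edgeR called 0 of them, with 12 at an unadjusted p under 0.05, while DESeq2 called 1 and limma-voom 7. Its 106 members held 0.679% ± 0.045 of the counts in NCA libraries (SD, n = 3). Without it, that class had 29 of 166 called, or 17.5%, with a median of 0.33. Shares of counts are therefore given without this stretch where it enters.

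The regions that border the window were followed as the closest witnesses of an effect in cis. On the long-arm side the first was the start of SLC30A9, a zinc transporter gene, at chr4:41990173-41991146. It had 22, 17.5 and 12.9 CPM under NCA, 16.8, 18.2 and 11 under ASO2 and 17.1, 16 and 20.4 under ASO10. Its groups overlapped, with log2 fold changes of -0.19 ± 0.16 and 0.033 ± 0.16 (SE; edgeR adjusted p = 0.594 and 0.967). Next came the start of BEND4, a gene of the BEN-domain family, at chr4:42151138-42152687, with 11.9, 9.96 and 8.96 CPM under NCA, 8.84, 11.8 and 11.1 under ASO2 and 11.6, 12.6 and 14.3 under ASO10. Neither oligonucleotide passed the test there (edgeR adjusted p = 0.923 and 0.557).

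On the short-arm side lay 3 regions inside LIMCH1, whose product activates non-muscle myosin, at chr4:41644265-41644807, chr4:41638541-41639136 and chr4:41620669-41621043. Their log2 fold changes were 0.41, -0.56 and 0.29 under ASO2 and 0.29, -0.54 and 0.29 under ASO10, with standard errors of 0.26 to 0.40. None was called. A weak region at chr4:42246826-42247000, 94.2 kb from BEND4, had 7, 11 and 18 counts under NCA and was not called either (edgeR adjusted p = 0.639 for ASO2 and 0.394 for ASO10). The 6 tested regions nearest to the window, 3 on each side, therefore gave no call under either ASO, and the sign of the SLC30A9 values, and of the BEND4 value under ASO2, changed when certain single libraries were left out.

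Further out, but within 1 Mb, the 13 regions called under ASO2 (named after their values were seen) lay 0.461 to 0.964 Mb away. On the side towards the short-arm end, 4 of them fell in APBB2, which encodes a binding partner of the amyloid precursor protein, and LIMCH1. At chr4:41374645-41375202, in LIMCH1, NCA libraries had 7.47, 4.79 and 6.24 CPM and ASO2 libraries 13.1, 11.7 and 12.2, a log2 fold change of 0.99 ± 0.22 (edgeR adjusted p = 0.00029). At chr4:41406007-41406682, in the same gene, the value was -1.08 ± 0.35 (adjusted p = 0.0426). That single lower call was lost in 12 of 18 alternatives. So 2 regions of the same gene moved in opposite directions.

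On the other side 9 of 39 regions were called, all higher, from just before SHISA3 to just before GRXCR1. The group included chr4:42354884-42356049, 41.4 kb from SHISA3, with 5.15, 7.31 and 4.54 CPM under NCA and 12.5, 14.4 and 9.82 under ASO2 (log2 fold change 1.11 ± 0.22, edgeR adjusted p = 5.52e-05). It also included 4 regions in the body of ATP8A1, a phospholipid flippase gene. Of these, chr4:42477419-42477901 had 3.61, 2.40 and 2.61 CPM under NCA, 8.70, 6.33 and 5.78 under ASO2 and 4.11, 7.85 and 6.12 under ASO10. It alone within 1 Mb was called under ASO10 too (1.07 ± 0.30, adjusted p = 0.0348). No region within 1 Mb was called under ASO10 with DESeq2 or limma-voom, or without any single NCA library. The same held without ASO10 replicate 2 or 3 or ASO2 replicate 1, and with only the 2 groups compared. The smallest adjusted p of the group, 3.18e-06, belonged to chr4:42844782-42846120, 46.6 kb from GRXCR1, where NCA stood at 9.79, 10.3 and 8.28 CPM, ASO2 at 19.2, 22.6 and 15.4, and ASO10 at 6.80, 7.96 and 10.2. Of the 13 ASO2 calls, 7 were kept under every alternative, and the other 6 were lost in at least 1 fit with a library left out.

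**Figure D3:**
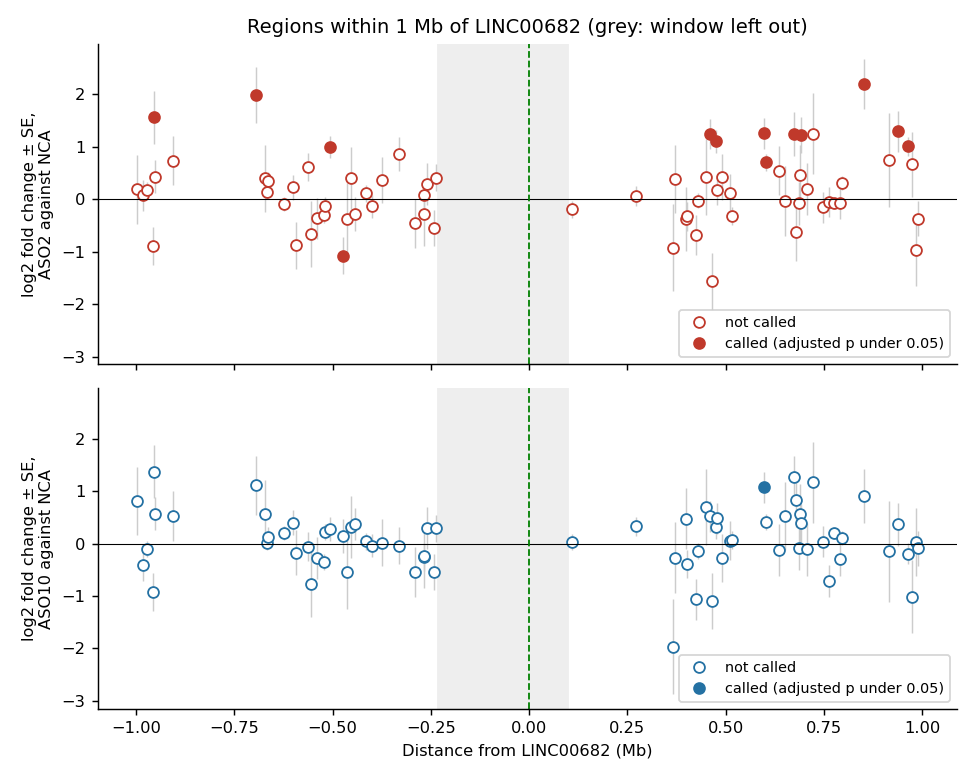
Log2 fold change with SE of the 73 tested regions within 1 Mb of LINC00682 against their distance in Mb, for ASO2 (upper) and ASO10 (lower) against NCA, filled where called and with the window left out in grey. The 13 filled points under ASO2 lie 0.461 Mb or more from LINC00682, and 1 point is filled under ASO10.

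No gene of the list around LINC00682 was called at its start under ASO2. The list of 47 neighbours had a tested region within 1 kb of the start for 35 genes, 9 genes had none and 3 were not in the promoter table. In ASO2 against NCA, 0 of the 35 were called by edgeR, DESeq2 or limma-voom, and 4 had an unadjusted p under 0.05 (median -0.072, from -0.99 to 0.94). Of all tested regions 5.6% were called, but of start sites only 1.82% on chromosome 4 and 1.53% on other chromosomes. For 35 starts, 0 calls is close to those start-site shares. UCHL1, a deubiquitinase of neurons, was at 25.6, 26.1 and 24.1 CPM under NCA, 22.2, 26.8 and 22.3 under ASO2 and 29.6, 27.3 and 30.5 under ASO10, uncalled in both. Its ASO2 and NCA libraries overlapped, and its ASO10 libraries lay above NCA.

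Under ASO10, 2 of the 35 were called, both higher (median of the list 0.10). That is 5.71% of the list, against 1.09% of all tested regions. Of start sites, ASO10 called 2.48% on other chromosomes, nearly all higher, and 0.911% on chromosome 4. UGDH, which makes UDP-glucuronic acid, had 31.4, 29.1 and 34.9 CPM under NCA and 46.2, 43.2 and 40.8 under ASO10 (0.45 ± 0.12, edgeR adjusted p = 0.0339). FRYL, a gene related to the Drosophila gene furry, had 50, 46.3 and 55.4 against 69, 62.2 and 70.2 (0.41 ± 0.11, adjusted p = 0.0314). Both calls were lost with loess offsets, with no filter on low counts, with the replicate number as a block (edgeR adjusted p = 0.0716 and 0.0688) and without ASO2 replicate 1, UGDH also without any single NCA or ASO10 library, and FRYL without NCA replicate 1 or 2 or ASO10 replicate 1 or 3. UGDH and FRYL lie 2.35 and 6.90 Mb from LINC00682. Between the ASOs, TEC, a tyrosine kinase gene, was higher under ASO2 (0.61 ± 0.18) and SLAIN2, which acts at microtubule ends, lower (-0.40 ± 0.12; edgeR adjusted p = 0.0232 and 0.023). Both calls were lost without ASO2 replicate 1 or ASO10 replicate 3, TEC also without ASO2 or ASO10 replicate 2, and SLAIN2 without ASO2 replicate 3 or ASO10 replicate 1. Limma-voom also ended the TEC call, and loess offsets the SLAIN2 call, at -0.24 (adjusted p = 0.22).

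In all 3 ASO2 libraries the short arm stood lower against the long arm than in any NCA library. On the long arm ASO2 called 467 regions higher and 21 lower of 3388, or 14.4%, with a median of 0.20. On the short arm it called 78 higher and 17 lower of 1406, or 6.76%, with a median of -0.050. For each library, the mean log2 CPM of the short arm minus the long arm was 0.11, 0.16 and 0.074 under NCA, -0.12, -0.19 and -0.11 under ASO2, and -0.015, 0.040 and 0.034 under ASO10. The 3 groups did not overlap, in the order NCA, ASO10, ASO2. The differences from NCA were -0.25 for ASO2 and -0.094 for ASO10, and -0.16 between the ASOs (exact permutation p = 0.1 and adjusted 0.171 for each).

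The short arm was not uniform. Its first 10 Mb, where genes are dense, had 5 higher and 9 lower of 551 under ASO2, or 2.54%, with a median of -0.19. Between 10 and 49 Mb it had 73 higher and 8 lower of 770, or 10.5%, with a median of 0.12. The bin from 30 to 40 Mb, next to the one that holds LINC00682, had 32 higher and 1 lower of 210, or 15.7%. The most frequent calls were in the bins from 130 to 140 Mb (48 of 219, 21.9%) and from 160 to 170 Mb (50 of 232, 21.6%), far out on the long arm. Under ASO10 no bin passed 3.65% called, again in the bin from 130 to 140 Mb.

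The share of members called under ASO2 climbed with distance from the ends of protein-coding genes. A region in the middle of a long gene also counts as distant from its ends. Within 1 kb of a protein-coding gene end, 3 were higher and 6 lower of 516, or 1.74%, close to the 1.68% of other chromosomes. The share rose to 5.13% at 1 to 10 kb, 9.55% at 10 to 100 kb, 19.0% at 100 kb to 1 Mb and 33.2% (62 of 187) beyond 1 Mb. On other chromosomes the same classes had 3.19%, 5.11%, 9.34% and 4.32%. So the shares were close at gene ends and apart far from them. Beyond 1 Mb the share did not drop on chromosome 4, but it did in the pool of other chromosomes (4302 regions, median -0.081). Centromere flanks were left in that pool, whereas the short arm had the same 59 regions in this class with or without its flank. No other chromosome was split by these classes on its own, so whether the difference is particular to chromosome 4 was not tested. No test was made of these shares, since regions are not replicates.

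The arms were furthest apart in 1 of these classes. At 100 kb to 1 Mb from a gene end the long arm had 263 higher and 6 lower of 1212 under ASO2 (22.2%, median 0.42) and the short arm, without the centromere flank, 21 higher and 3 lower of 272 (8.82%, median 0.22). Beyond 1 Mb the shares were 32.0% of 128 on the long and 35.6% of 59 on the short arm, and within 1 kb 1.44% and 2.38%. At 10 to 100 kb they were 11.0% and 6.56%, and 10.3% for the short arm between 10 and 49 Mb. ASO10 gave lower shares: 3.8% on the long arm at 100 kb to 1 Mb, 1.47% on the short arm, and 1.40% on other chromosomes.

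**Figure D4:**
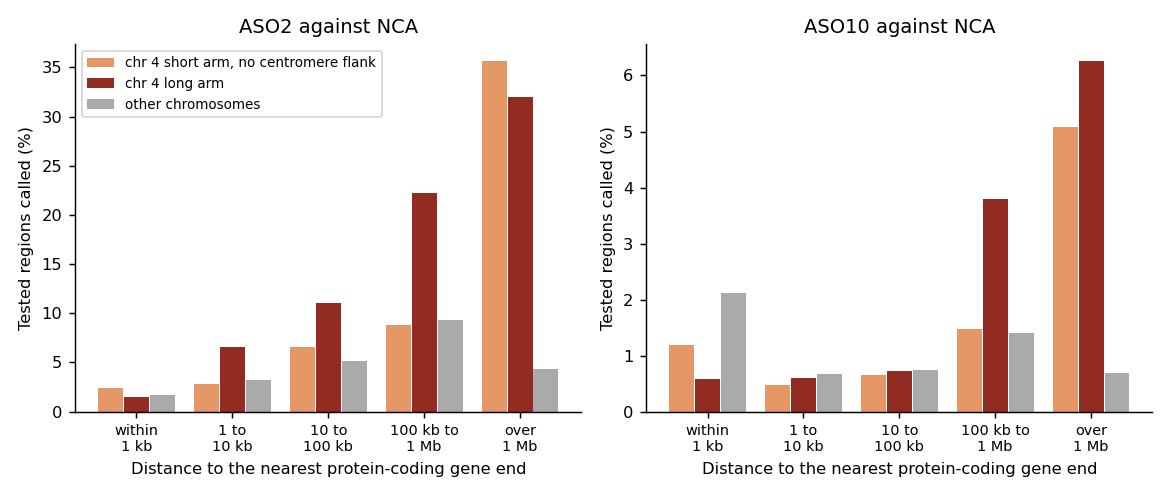
Share of tested regions called, in percent, by distance to the nearest protein-coding gene end, for the short arm without the centromere flank, the long arm and the other chromosomes, under ASO2 (left) and ASO10 (right). Under ASO2 the bars for chromosome 4 climb from under 3% within 1 kb to over 30% beyond 1 Mb.

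In ASO2 against NCA, the long arm had the highest share called in each of 5 classes of signal strength. In regions of 2 to 3 log2 CPM the long arm had 25.9% called under ASO2, the short arm 13.8% and other chromosomes 10.6%. At 3 to 4 log2 CPM the values were 28.2%, 14.3% and 13.1%. Over 4 log2 CPM the order changed behind the long arm, with 9.97%, 5.45% and 7.18%. In that class ASO10 called 4.16% on the long arm, 3.03% on the short arm and 5.42% elsewhere, so the long arm did not lead there.

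Summed counts over every member, with no filter, were also taken per library. Among members, the classes over 100 kb from a gene end had the most calls under ASO2 in these same libraries. Their shares of counts are therefore no separate support, and the permutation p-values given here are unadjusted. Long-arm regions over 100 kb from a gene end took 0.612%, 0.597% and 0.640% of the counts on the main chromosomes under NCA, 0.798%, 0.847% and 0.816% under ASO2 and 0.695%, 0.662% and 0.666% under ASO10. The groups did not overlap, and the ASO2 share was 1.33 times and the ASO10 share 1.09 times that of NCA (exact permutation p = 0.1 for both). Short-arm regions of that kind, without the centromere flank, took 0.156% ± 0.0074 in NCA libraries, 0.185% ± 0.0056 in ASO2 libraries and 0.161% ± 0.0048 in ASO10 libraries (SD, n = 3). That is 1.18 times NCA for ASO2, with no overlap, and 1.03 times for ASO10, with overlap. Long-arm regions within 1 kb of a gene end took 0.705% ± 0.041, 0.680% ± 0.042 and 0.721% ± 0.028 under NCA, ASO2 and ASO10, with all groups overlapping. The 93 members within 1 Mb of LINC00682 took 0.0489% ± 0.0020, 0.0535% ± 0.0033 and 0.0502% ± 0.0022 in the same order. The ASO2 share was 1.09 times that of NCA, with the groups apart (exact permutation p = 0.1), and the ASO10 share 1.03 times, with overlap. The closest ASO2 and NCA libraries had 0.0515% and 0.0511%. All members without the centromere flank also took 1.09 times the NCA share under ASO2, and 1.02 times under ASO10.

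**Figure D5:**
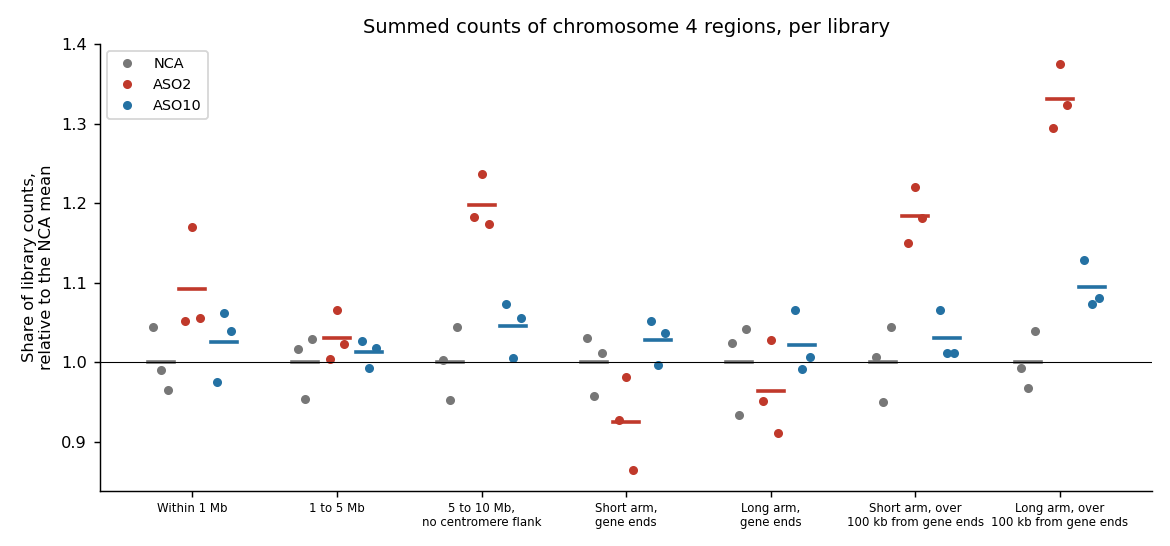
Share of a library's counts on the main chromosomes that fell in each class of chromosome 4 regions, divided by the NCA mean, with a point per library and a line at the group mean. Long-arm regions over 100 kb from gene ends stand at 1.33 for ASO2 and 1.09 for ASO10, and regions within 1 Mb of LINC00682 at 1.09 and 1.03. All members without the centromere flank, not plotted, had 1.09 for ASO2 and 1.02 for ASO10.

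The regions called higher were counted by nearest gene, and genes were ranked by that count, so the ranking is a description. Of 668 genes that were nearest to a tested member, 165 had at least 1 region higher under ASO2, and the first 10 genes held 161 of the 545 among 525 regions tested. Their shares called, 25% to 47.1%, compare with 19.0% and 33.2% of all members 100 kb to 1 Mb and over 1 Mb from a gene end. TENM3, a teneurin that guides synaptic wiring, was nearest to 29 such regions of 106 tested. SPOCK3, an extracellular proteoglycan gene, had 18 of 51, and AGA, a lysosomal hydrolase gene, 16 of 34. The protocadherin genes PCDH7, PCDH10 and PCDH18 had 15 of 60, 13 of 50 and 13 of 43, and FAT4, an atypical cadherin gene, 13 of 33. ARAP2, a GTPase-activating protein gene on the short arm, had 16 of 57. GALNTL6 had 15 of 46, and RAPGEF2 13 of 45. The median log2 fold change of all regions nearest to TENM3 was 0.62, and for AGA it was 0.84.

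The smallest adjusted p on the chromosome came from a region 41.9 kb from NEIL3, a DNA glycosylase gene, at chr4:177266735-177267928. It had 13.7, 8.45 and 13 CPM under NCA, 35.1, 28.8 and 25.1 under ASO2 and 10.7, 8.87 and 9.25 under ASO10. ASO2 thus stood above all other libraries, by 1.33 ± 0.16 against NCA and 1.62 ± 0.16 against ASO10 (edgeR adjusted p = 1.65e-13 and 3.74e-19), while ASO10 overlapped NCA. A pair of regions 354 and 445 kb from FAT1, an atypical cadherin gene, followed. At chr4:187171937-187172742 the values were 4.25, 6.30 and 6.24 CPM under NCA, 17.5, 17.7 and 16 under ASO2 and 7.15, 7.74 and 9.12 under ASO10 (1.60 ± 0.20 for ASO2, adjusted p = 9.7e-12). At chr4:187080828-187082031 ASO2 gave 1.14 ± 0.15 and ASO10, also called, 0.54 ± 0.15 (adjusted p = 0.0363).

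Against ASO10, ASO2 was also higher at a region in DDX60L, a relative of an antiviral helicase gene, at chr4:168451613-168452477 (1.53 ± 0.18). A region in ARHGAP24 at chr4:85774057-85774786 had 6.83, 7.31 and 6.69 CPM under NCA, 17.5, 18.4 and 16 under ASO2 and 5.98, 6.94 and 6.25 under ASO10. ASO10 overlapped NCA at both. The lower side against ASO10 had the start of FAM193A (-0.53 ± 0.12), a region 186 kb from ADRA2C, the alpha-2C adrenergic receptor gene (-0.46 ± 0.11), and a region near the long-arm end (-0.70 ± 0.16). The region 186 kb from ADRA2C lies in a duplicated block, from 3.6 to 4.3 Mb. How reads mapping to more than 1 copy were counted is not given in the sources used here, so its value is uncertain. Its call was also lost with loess offsets, at -0.25 (edgeR adjusted p = 0.126), and without ASO2 replicate 1 or ASO10 replicate 3. The call near the long-arm end was lost without ASO10 replicate 1.

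That last region, chr4:190122468-190123089, 50.7 kb from DUX4, had the smallest adjusted p on the lower side under ASO2, with 22.7, 20 and 21.8 CPM under NCA and 11.6, 11.8 and 13.1 under ASO2 (-0.81 ± 0.16, edgeR adjusted p = 2.97e-05). The end of the long arm has a near-identical copy on chromosome 10, and how reads mapping to both were counted is not given in the sources used here, so this value is uncertain. A region in AFAP1, which encodes an actin filament binding protein, was lower under both ASOs at chr4:7894666-7895328. It had 15.5, 11.7 and 15.2 CPM under NCA, 4.63, 8.26 and 7.52 under ASO2 and 5.63, 7.74 and 6.90 under ASO10 (-1.03 ± 0.20 and -1.06 ± 0.21; adjusted p = 5.2e-05 and 0.000349). The third lower region under ASO2 lay in RNF150, at -0.80 ± 0.18, with the groups overlapping and the call lost without NCA replicate 1.

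For ASO10 the 3 smallest adjusted p on the higher side were all in regions that ASO2 also called higher. The first, at chr4:180227403-180228978, 1219 kb from TENM3, had 13.5, 13 and 15.5 CPM under NCA, 29.7, 27.8 and 28.4 under ASO2 and 27, 25.5 and 24.2 under ASO10. Log2 fold changes were 1.03 ± 0.15 and 0.86 ± 0.15 (edgeR adjusted p = 1.76e-09 and 2.08e-05). The others lay 502 kb from PCDH18 (0.88 ± 0.16 for ASO10) and 10.7 kb from DDX60 (1.00 ± 0.18). On the lower side a region in SCFD2 at chr4:52995976-52996851 moved under ASO10 (-1.07 ± 0.25) but had -0.045 ± 0.23 under ASO2, and the direct comparison was called (1.02 ± 0.25, adjusted p = 0.00318). The SCFD2 call against NCA was lost without NCA replicate 3.

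Regions called in the same direction under both ASOs, with all 6 ASO libraries on 1 side of NCA, were led on the higher side by 3 weak sites. Near VEGFC, the lymphatic growth factor gene, chr4:176810397-176810722 had 3, 1 and 3 counts under NCA. Its summed counts per library total were 9.01 times NCA under ASO2 (95% exact interval 4.15 to 23.2) and 6.32 times under ASO10 (2.84 to 16.6), intervals that cover counting error only. At 1035 kb from TECRL, chr4:63240355-63240842 had 0, 2 and 2 counts under NCA, and the ratios were 15.3 (5.72 to 57.8) and 9.14 (3.29 to 35.3). A region in ADGRL3, a latrophilin gene of synapses, had log2 fold changes of 2.16 ± 0.43 and 2.15 ± 0.43. All 3 ASO10 calls were lost with limma-voom and in some fits without 1 library, the first pair without any single NCA library, and the ASO2 call near VEGFC was lost with limma-voom as well. The lower side held the AFAP1 region, a region 179 kb from NKX6-1, a homeobox gene (-1.17 ± 0.27 and -1.14 ± 0.27), and a region in LNX1, a ubiquitin ligase gene (-0.91 ± 0.26 and -1.11 ± 0.26). The ASO10 calls near NKX6-1 and in LNX1 were lost in 3 fits without 1 library each, and the ASO2 call in LNX1 likewise.

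Few start sites were called. Of 439 members over a protein-coding start, ASO2 called 4 higher and 4 lower, or 1.82%, with a median of -0.058, and ASO10 called 4, all higher, or 0.911%. On other chromosomes 1.53% and 2.48% of start sites were called. The smallest adjusted p belonged to an internal start of STX18, a syntaxin gene of the endoplasmic reticulum, at chr4:4460803-4462687, with the CCAAT match printed above. It had 9.02, 12.2 and 11.6 CPM under NCA, 23.7, 27.1 and 22.5 under ASO2 and 17.7, 11.7 and 18.9 under ASO10 (1.16 ± 0.16 for ASO2, edgeR adjusted p = 5.16e-10). ASO10 overlapped NCA there and was not called (adjusted p = 0.0692).

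CXCL8, the gene of the chemokine interleukin-8, whose promoter with AP-1 and NF-kB letters is printed above, had a weak region at chr4:73740263-73740723. The CPM were 2.19, 0.504 and 2.72 under NCA, 4.77, 6.12 and 3.85 under ASO2 and 3.64, 1.93 and 3.91 under ASO10 (1.421 ± 0.38 for ASO2, edgeR adjusted p = 0.00637). The call was lost without NCA replicate 2, which had 4 counts, and also without ASO2 replicate 2. PLK4, the kinase that starts centriole duplication, had 20, 19.9 and 17.4 CPM under NCA, 27.9, 34.4 and 32.3 under ASO2 and 24.2, 23.2 and 25.8 under ASO10 (0.73 ± 0.14, adjusted p = 1.79e-05). This call held under all 18 alternatives. CDS1, a phospholipid synthesis gene, also rose (0.67 ± 0.16, adjusted p = 0.0015), a call lost without NCA replicate 1 or ASO2 replicate 1.

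The starts that fell under ASO2 included CTBP1, a transcriptional corepressor gene with the GC-rich promoter printed above, at 27.1, 27.9 and 28.9 CPM under NCA, 21.2, 21.9 and 15 under ASO2 and 28.5, 27.8 and 28.9 under ASO10. Its log2 fold change was -0.54 ± 0.14 (edgeR adjusted p = 0.00416), and the call was lost without ASO2 replicate 3. The others were the shared start region of GAK and TMEM175 (-0.65 ± 0.18), ANKRD17 (-0.48 ± 0.12) and FAM193A (-0.41 ± 0.12). Each of these 3 calls was lost in at least 2 fits without 1 library: GAK without NCA replicate 2 or ASO2 replicate 1, ANKRD17 without NCA replicate 1 or ASO2 replicate 1, and FAM193A without NCA replicate 1 or 3 or ASO2 replicate 1 or 3. ASO10 raised UVSSA, a gene of transcription-coupled repair (0.48 ± 0.12, adjusted p = 0.0184), and a start of TENM3 (0.57 ± 0.14, adjusted p = 0.0114), beside UGDH and FRYL. UVSSA lost its call without NCA replicate 1 or 2 or any single ASO10 library, and with loess offsets, while TENM3 lost it without NCA replicate 2 or ASO10 replicate 1 or 2.

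The other gene lists on the chromosome had 0 to 2 starts called in each comparison. Of 35 neural and sympathoadrenal genes, 26 had a tested region, and ASO2 called STX18 higher and CTBP1 lower (median -0.019) while ASO10 called TENM3. That is 7.69% and 3.85% of the list, against 5.6% and 1.09% of all tested regions and 1.53% and 2.48% of start sites elsewhere. HAND2 was at 23.4, 19.2 and 28.5 CPM under NCA, 23, 25.9 and 16.8 under ASO2 and 23.6, 23.6 and 25.9 under ASO10, with overlapping groups and no call. Of 35 stress, proteostasis and cell death genes, 29 had a region, and edgeR, DESeq2 and limma-voom called 0 in any comparison, where 4 had an unadjusted p under 0.05 for ASO2, 1 for ASO10 and 2 between them. Their ASO2 values ran from -0.55 to 0.39 with a median of -0.091. Of 27 receptor and signalling genes, 19 had a region, with CXCL8 called under ASO2 and none under ASO10. The medians over all tested regions were -0.024 for ASO2 and -0.0067 for ASO10.

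Base composition was compared with the fold changes over promoters. Over 486 promoters that lay in tested members, the percentage of G and C and the log2 fold change had a Pearson r of -0.16 for ASO2, 0.13 for ASO10 and -0.28 for ASO2 against ASO10. The median was 69.0% on the short and 63.3% on the long arm. These are correlations across promoters that share libraries, and the part of base composition in the differences between the arms was not tested.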

How the data were processed

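The data are 9 ATAC-seq libraries of SK-N-BE(2)c cells, 3 each for NCA, ASO2 and ASO10, at depths of 7293565 to 10948569 counts. The authors deposited raw counts, whole numbers without normalization, over 148797 regions in 1 table. FastQC, Bowtie2 2.2.6, SAMtools, MACS2 2.1.2, DESeq2 1.42.0 and hg38/GRCh38 are named per the submitters' processing notes, with no role or order. Whether reads, pairs or cut sites were counted, whether positions were shifted for Tn5, and whether regions were called per sample or on pooled samples are not given in the sources used here. The molecule field of the labels reads RNA, although genomic DNA was tagmented per the labels' protocols. Coordinates are as deposited.

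The counts were fitted with edgeR 4.0.16 (R 4.3.3), quasi-likelihood with robust dispersions, TMM factors, filterByExpr by group and 1 term per group. All 9 libraries entered the fit, p-values were adjusted by Benjamini-Hochberg over the 119417 regions tested, and only chromosome 4 is reported. The biological coefficient of variation common to all regions was 23.5%. The precision of a region with 3 libraries a group also depends on its own counts and spread. The script was tested on simulated data. Scores per library (mean log2 CPM, prior count 2) were compared by two-sided exact permutation, in 12 tests adjusted together. Shares of summed counts were compared by the same permutation in each class of regions, outside those 12 tests and without adjustment. Alternatives were DESeq2 1.42.0, limma-voom (limma 3.58.1), other scalings, filters and distances, a replicate block and leaving out each library.

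Regions named were the 3 nearest to the window on each side, the 3 with the smallest adjusted p per comparison and direction, the 3 highest and 3 lowest called under both ASOs with no overlap with NCA, and list genes that were called or led their list. Regions called within 1 Mb, start sites outside the lists and nearest genes were named after their values were seen. The members and lists were chosen with earlier results of these data known. Gene positions, start sites and promoters came from RefSeq tables (GRCh38.p14). These give gene bodies without exons, so a region is described as inside a gene only. List genes can share a start region.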

Additional observations from a re-analysis of the deposited data

Results flagged for a closer look

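The 2 ASOs had different effects on chromosome 4 when set against each other without NCA: 264 regions passed edgeR's test of the difference between ASO2 and ASO10, 246 of them higher under ASO2. The background of that comparison was 3.23% of all tested regions, and 5.51% of the chromosome 4 regions were called.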

How the results depend on the processing

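Over the 15 main results, 249 of 273 alternatives kept the direction and, for counts, stayed within 1.5 times. Over the 72 named values, 1260 of 1274 alternatives kept the direction, and 1135 both the direction and the side of the threshold. Requiring a log2 fold change over 1 left 380 calls on chromosome 4 for ASO2, 26 for ASO10 and 156 for ASO2 against ASO10. Limma-voom gave 33 for ASO10. Leaving out 1 library gave 378 to 571, 26 to 78 and 151 to 275 calls. Leaving out chromosome ends, centromere flanks and the duplicated block from 3.6 to 4.3 Mb, a choice made after seeing the data, left 581, 82 and 260. The arm scores and the scores against other chromosomes kept their sign under every alternative run.

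The difference between near and far regions changed sign for ASO10, at -0.0096 with at least 10 counts in every library and -0.0067 with medians over regions. Without 1 library it ran from -0.0233 to 0.0979 for ASO10, from -0.0519 to 0.00188 for ASO2 and from -0.116 to 0.00388 between the ASOs, and with the near side at 5 Mb from -0.0284 to 0.00295 for ASO10. The cause was not tested. Among uncalled regions, leaving out 1 library moved chr4:41620669-41621043 from -0.0777 to 0.643 (ASO10), SLC30A9 from -0.373 to 0.00993 (ASO2) and from -0.146 to 0.229 (ASO10), BEND4 from -0.0300 to 0.169 (ASO2), and HAND2 from -0.271 to 0.0421 (ASO2) and from -0.100 to 0.194 (ASO10). Loess offsets gave -0.0410 for SLC30A9 and -0.0660 for HAND2 under ASO10, and -0.00481 for BEND4 under ASO2.

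With the replicate number as a block, 562, 64 and 248 regions were called, against 583, 82 and 264. Deviations of same-numbered libraries correlated between -0.036 and 0.0125, and those of different-numbered libraries between -0.021 and 0.030. Counting noise weighs on such values, since the median tested region had 1.52 log2 CPM. Whether the numbers pair the libraries therefore cannot be told from them. Depth limits the weak sites near TECRL and VEGFC, where NCA libraries held 0 to 3 counts.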
